A study of Homo sapiens with 11 samples.

Results

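Small nucleolar RNAs (snoRNAs) and small Cajal body RNAs (scaRNAs) were examined across 4 treatment groups of MDA-MB-468, a human breast cancer cell line that grew out of a pleural effusion. The members were the genes whose symbol starts with SNORA, SNORD or SCARNA, that own a probe set annotated with exactly 1 gene symbol, and whose log2 value averaged at least 4 over the 11 arrays. They numbered 119 of 238 such genes with a probe set, and 119 of the 15865 genes of the array that entered the tests. Of these, 47 were box H/ACA snoRNAs (SNORA), 55 were box C/D snoRNAs (SNORD) and 17 were scaRNAs. The array was the Affymetrix GeneChip Human Gene 2.1 ST, read with labelled cDNA made from total RNA. Tumour necrosis factor (TNF, an inflammatory cytokine) at 40 ng/ml plus apigenin (a plant flavone) at 40 µM was given to 3 samples, apigenin alone at 40 µM to 2, TNF alone at 40 ng/ml to 3, and 3 control samples received neither; all groups are the same line after 24 h. The labels do not say that samples of a group were separate cultures, so each p-value speaks of array-to-array spread only, part of which may be technical, and the small number of arrays limits the precision.

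Both snoRNA classes act as guides inside protein complexes of the nucleolus. Box C/D snoRNAs direct methylation of riboses, with fibrillarin as the enzyme, and box H/ACA snoRNAs direct the conversion of uridine to pseudouridine, with dyskerin as the enzyme. Their main target is ribosomal RNA, while scaRNAs guide the same modifications on the small nuclear RNAs of the spliceosome in Cajal bodies. Most human members are cut out of introns of host genes, many of which encode ribosomal proteins or other factors of ribosome production, so a host transcript and its snoRNA share their transcription but not their later fate. In bulk RNA, fewer cells and less RNA per cell cannot be told apart.

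The members were selected on their mean level over all 11 arrays, so their levels are given as a description. Just inside it lay SNORA16B at a mean of 4.05, SCARNA1 at 4.09 and SNORA70B at 4.15 over the 11 arrays, and just outside it lay SNORD96B at 3.82, SNORD13P2 at 3.69 and SNORA31 at 3.66. The rule kept 47 of 61 box H/ACA genes, 55 of 157 box C/D genes and 17 of 20 scaRNA genes. Box C/D genes below the level included the 43 measured copies of SNORD115 and SNORD116, the imprinted snoRNA clusters of the Prader-Willi region that are known from brain; their highest mean was 2.71 and 0 of them were members. All 119 members passed the filter on low values. A further 174 probe sets name a snoRNA or scaRNA together with other genes and were not used, among them those of SNORD3A (the U3 snoRNA), SNORD118 (U8) and SNORA73A and SNORA73B. SNORD13P3, kept by the rule, is annotated as a pseudogene. Copies of a family such as SNORA38 and SNORA38B are close in sequence, so their probe sets may share signal.

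The members moved together from array to array, and most of that movement lay between arrays of the same treatment. Set against each member's own mean over the 11 arrays, the median deviation was 0.40, -0.44 and -0.60 (log2) on TNF plus apigenin arrays 1, 2 and 3. It was -0.12 and -0.40 on apigenin arrays 1 and 2, 0.14, 0.56 and -1.07 on TNF arrays 1, 2 and 3, and 0.14, 1.17 and 0.17 on control arrays 1, 2 and 3. Control 2 was therefore the high array and TNF 3 the low one, and within 3 of the groups one array stood away from the other arrays of its group. All genes tested had median deviations between -0.28 (apigenin 1) and 0.08 (TNF plus apigenin 1), with -0.02 on control 2 and -0.04 on TNF 3. Control 2 was the highest of all 11 arrays for 88 of the 119 members and TNF 3 the lowest for 78. Whether RNA recovery, labelling or the state of the cells differed between these arrays was not tested.

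**Figure D1:**
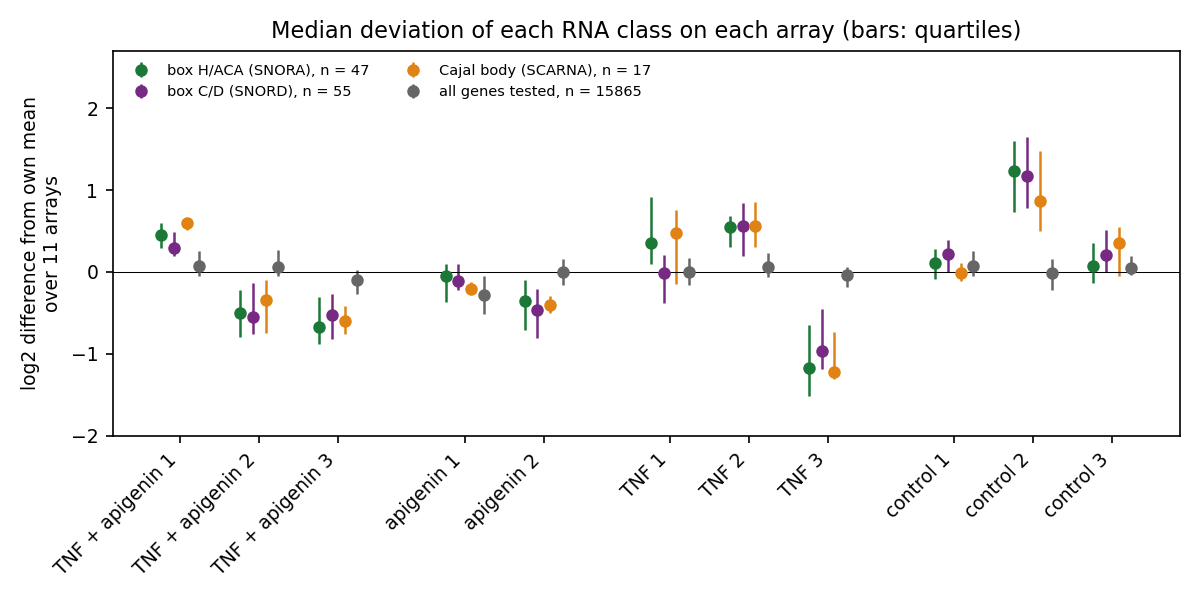
Median log2 deviation of each RNA class from its members' own means over 11 arrays (y axis) on each array (x axis), with bars from the lower to the upper quartile over genes; grey is all 15865 genes tested. The 3 classes lie together, lowest on TNF 3 and highest on control 2, while all genes stay between -0.28 and 0.08.

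The 3 classes shared this order. On control 2 the median deviation was 1.23 for box H/ACA members, 1.17 for box C/D members and 0.86 for scaRNAs, and on TNF 3 it was -1.17 for box H/ACA, -0.96 for box C/D and -1.22 for scaRNAs. The clearest gap between the snoRNA classes was on TNF 1, where the median deviation was 0.35 for box H/ACA and -0.01 for box C/D. On that array 40 of 47 box H/ACA members, but 26 of 55 box C/D members, lay above their own mean. One array carries this gap, and no test over members was made.

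As a count within groups, TNF plus apigenin 1 was the highest array of its group for 108 of 119 members (90.8%, against 41.9% of all genes tested). TNF 3 was the lowest of its group for 102 members (85.7%, against 44.7%), and control 2 the highest of its group for 108 members (90.8%, against 23.2%). Apigenin 1 lay above apigenin 2 for 86 members (72.3%, against 21.8%). The 3 patterns of the groups with 3 arrays held together for 94 members (79%), namely 39 of 47 box H/ACA, 43 of 55 box C/D and 12 of 17 scaRNAs, against 6.23% of all genes tested. Among the 35 snoRNA and scaRNA genes below the level of 4 that passed the filter, 42.9% showed them. The members were looked at in this way after their values had been seen, so these shares describe the arrays.

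**Figure D2:**
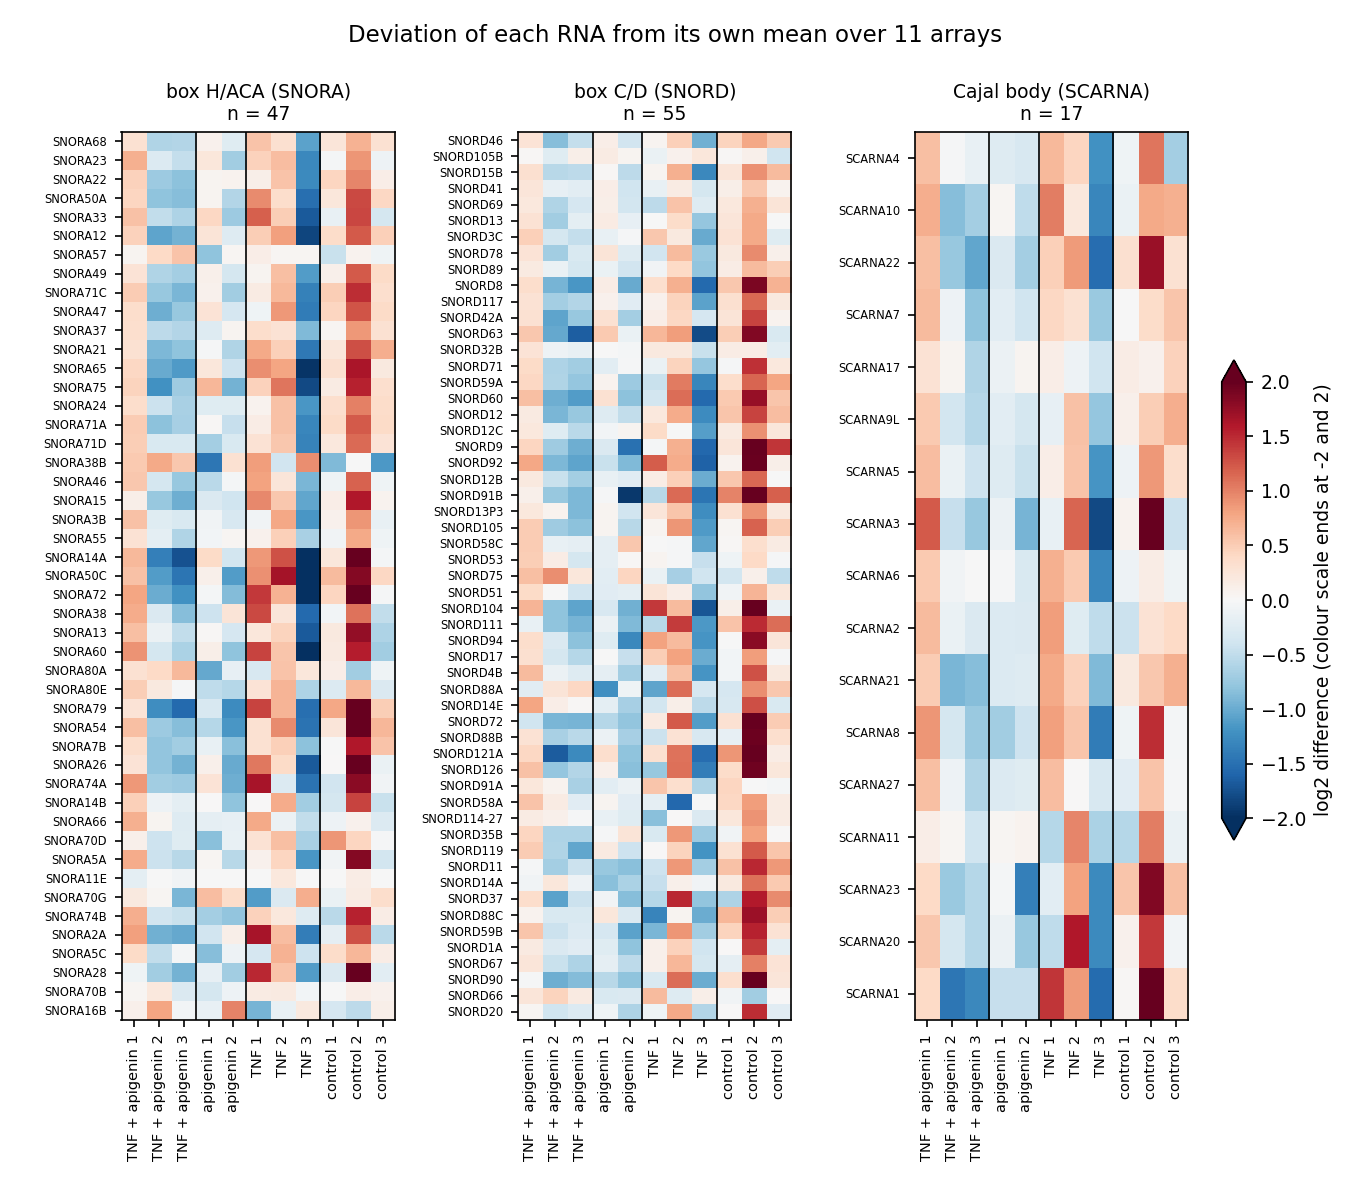
Each row is 1 snoRNA or scaRNA, ordered within its class by mean level, and each column 1 array; colour is the log2 difference from that RNA's own mean over the 11 arrays, with the colour scale ending at -2 and 2. TNF 3 is blue and control 2 red in most rows of all 3 classes, and a few rows such as SNORA38B, SNORD75 and SNORA80A run differently.

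The spread between replicate arrays was correspondingly wide. The pooled within-group standard deviation (SD) had a median of 0.67 over members and 0.25 over all genes tested. At a mean of 4 to 6 the medians were 0.67 for 47 members and 0.25 for other genes, at 6 to 8 they were 0.70 for 38 members and 0.24, and at 8 or above they were 0.65 for 34 members and 0.19. A total of 108 members exceeded the 95th percentile of other genes at a like level. By class the median SD was 0.73 for box H/ACA, 0.63 for box C/D and 0.67 for scaRNAs. SNORA50C (1.41), SNORA72 (1.40) and SNORA14A (1.39) were the widest. SNORA72, for example, had 7.66, 5.89 and 5.67 on the TNF plus apigenin arrays, 6.83 and 6.01 on the apigenin arrays, 8.29, 7.58 and 4.47 on the TNF arrays and 7.30, 9.09 and 6.86 on the control arrays. Its lowest and highest arrays were TNF 3 and control 2, a range of 4.62 in log2, the largest of all members. Another probe set of SNORA72 had a mean of 1.40, against 6.88 for the one used. Probe set means also lay apart for SNORA15 (2.35 and 7.45) and SNORA21 (5.28 and 8.74), and close together for SNORA38 and SNORD117.

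The 10 members with the highest means were SNORD46, SNORA68, SNORA23, SNORD105B, SNORD15B, SNORD41, SNORD69, SNORD13, SNORA22 and SNORA50A. SNORD46, a guide for ribosomal RNA, had 11.03, 9.91 and 10.29 on the TNF plus apigenin arrays, 10.89 and 10.38 on the apigenin arrays, 10.83, 11.25 and 9.81 on the TNF arrays and 11.21, 11.54 and 11.30 on the control arrays. Its TNF plus apigenin and apigenin arrays lay below every control array, while TNF 2 overlapped the controls. SNORD105B differed in kind: its values were 10.34, 10.08 and 10.43 with TNF plus apigenin, 10.48 and 10.38 with apigenin, 10.18, 10.40 and 10.54 with TNF and 10.34, 10.43 and 9.91 in control. All 4 groups of SNORD105B overlapped, and its SD of 0.20 was the lowest among box C/D members. SNORD13, a box C/D snoRNA known to guide acetylation of small-subunit ribosomal RNA rather than methylation, averaged 9.61 ± 0.49 (SD, n = 3) with TNF plus apigenin, 9.81 ± 0.24 (n = 2) with apigenin, 9.67 ± 0.59 (n = 3) with TNF and 10.15 ± 0.39 (n = 3) in control. These means differed by about the spread between arrays of a group.

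Some members ran apart from the common array pattern, and they were picked out after their values had been seen. SNORA80A, SNORD66 and SNORA16B followed none of the 3 patterns of the groups with 3 arrays. SNORD105B, SNORA57, SNORA38B, SNORD75, SNORD88A, SNORD14A, SNORA11E and SNORA70G followed 1 of them. SNORA11E hardly varied (4.57 to 4.97 over all arrays). SNORA38B had 8.28, 8.51 and 8.30 on the TNF plus apigenin arrays, 6.30 and 8.06 on the apigenin arrays, 8.59, 7.38 and 8.69 on the TNF arrays and 6.87, 7.74 and 6.60 on the control arrays. Its TNF plus apigenin arrays all exceeded the controls, and its TNF group overlapped them through TNF 2 and control 2.

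Apigenin alone against control gave the most calls. Of the 119 members 3 were called lower and 0 higher by limma at an adjusted p under 0.05 over all genes tested, all 3 of them box C/D snoRNAs; among all genes 3.44% were called lower and 0.221% higher. The share of members called lower is thus near that of the whole array. The median difference was -0.72 (log2) over members, against -0.18 over all genes tested. By class it was -0.70 for box H/ACA, -0.75 for box C/D and -0.72 for scaRNAs. At an unadjusted p under 0.05, 24 members were lower (7 box H/ACA, 16 box C/D, 1 scaRNA) and 0 higher, against 17.5% and 2.02% of all genes. The 2 apigenin arrays lay below every control array for 64 members (21 box H/ACA, 32 box C/D, 11 scaRNAs), against 26.9% of all genes, and above every control array for SNORA70G alone, against 4.69%. The direction was common to all 3 classes, while the size relative to the spread was enough for a call in 3 RNAs. Without control 2 the median was -0.40 and 10 members were lower at an unadjusted p under 0.05.

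SNORD14A is a U14 snoRNA, a box C/D RNA needed for early cleavages of the ribosomal precursor. It had 4.04 and 4.26 on the apigenin arrays, against 5.08, 5.98 and 5.41 on the control arrays. Both apigenin arrays lay well below the lowest control array, and SNORD14A fell by 1.34 in log2 with apigenin (standard error, SE, 0.25; 2.54-fold lower; adjusted p 0.0103 by limma). SNORD14E, another U14 copy that lies in HSPA8, had 5.29 and 4.81 with apigenin, against 5.16, 6.77 and 5.17 in control; its groups overlapped, with a difference of -0.65 (SE 0.40, adjusted p 0.397 by limma).

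SNORD11, a box C/D guide that lies within NOP58, the gene of a core protein of box C/D complexes, had 4.18 and 4.10 on the apigenin arrays, against 5.51, 6.43 and 5.79 on the control arrays. The groups did not overlap, and SNORD11 fell by 1.77 in log2 (SE 0.38; 3.42-fold lower; adjusted p 0.0185 by limma). NOP58 itself differed by -0.24 (SE 0.21, adjusted p 0.576 by limma).

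SNORD91B had 6.63 and 4.73 on the apigenin arrays, against 7.64, 8.86 and 7.85 on the control arrays. The groups did not overlap, but the 2 apigenin arrays differed from each other by more than any 2 control arrays, and SNORD91B fell by 2.44 in log2 (SE 0.63; 5.41-fold lower; adjusted p 0.0478 by limma). SNORD91A lies in the same host gene, TSR1, which encodes an assembly factor of the small ribosomal subunit. It had 4.83 and 4.92 with apigenin, against 5.46, 5.03 and 5.00 in control. Both apigenin arrays of SNORD91A lay below its lowest control array by a small margin, a difference of -0.29 (SE 0.32, adjusted p 0.664 by limma). TSR1 differed by -0.06 (SE 0.24, adjusted p 0.922 by limma).

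The call of SNORD14A was lost without apigenin 1 (adjusted p 0.116 by limma), that of SNORD11 without control 3 (0.0529), apigenin 1 (0.134) or apigenin 2 (0.0509), and that of SNORD91B in 9 of 11 fits that left out 1 array each (adjusted p 0.0199 to 0.203 over the 11). Fits without apigenin 1 or apigenin 2 keep 1 apigenin array. With all arrays set to 1 median or to 1 distribution, the median difference of all genes shrank to near 0 and SNORD14A alone kept its call.

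**Figure D3:**
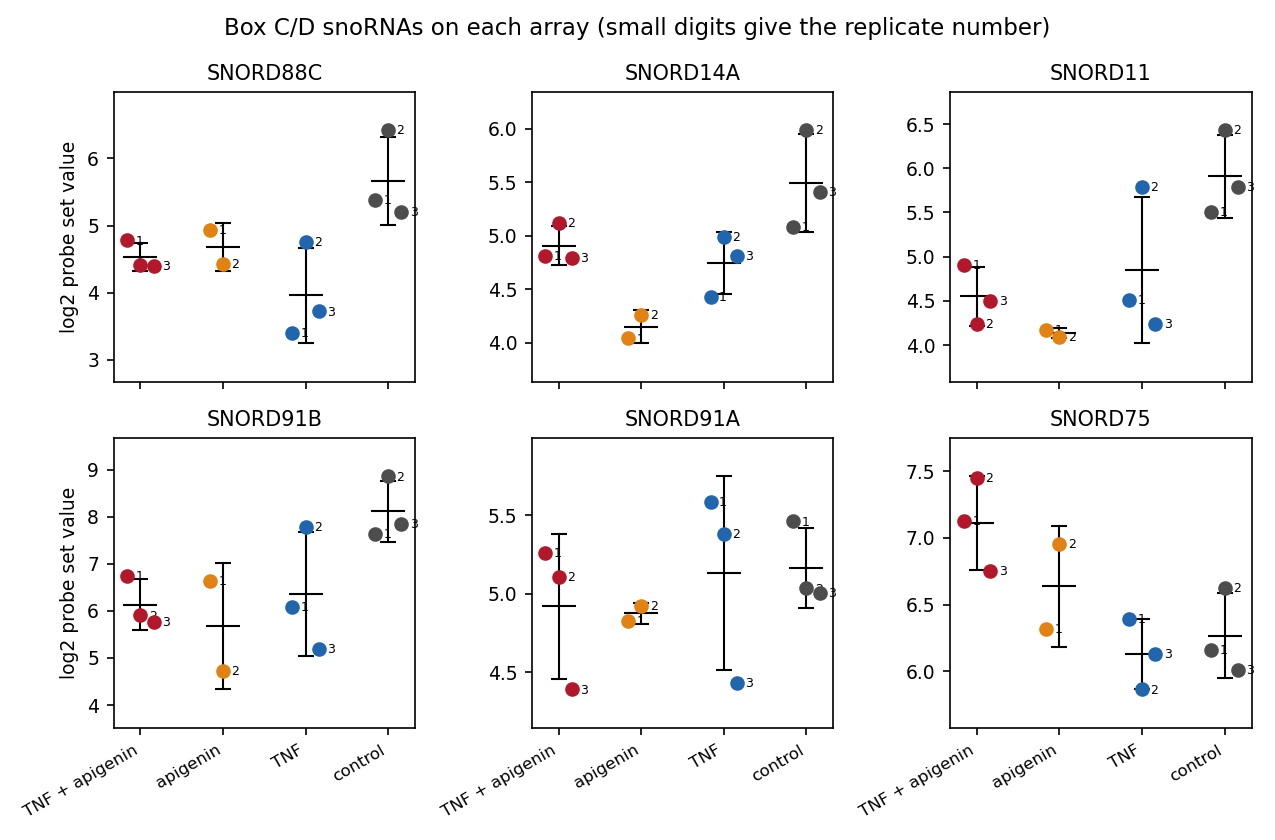
Log2 values of 6 box C/D snoRNAs on each array (points, with the replicate number), by group from left to right: TNF plus apigenin, apigenin, TNF, control; black bars give the group mean and 1 SD. SNORD88C, SNORD14A, SNORD11 and SNORD91B have their highest group mean in control and SNORD75 with TNF plus apigenin, while the groups of SNORD91A overlap except that apigenin lies below control.

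TNF alone against control called 1 member, SNORD88C, lower and 0 higher (all genes: 0.227% lower, 0.473% higher). The median difference was -0.58 over members and -0.04 over all genes tested. Here box C/D and box H/ACA differed in their counts at an unadjusted p under 0.05: 16 of 55 box C/D members and 0 of 47 box H/ACA members were lower, with 1 of 17 scaRNAs (SCARNA23), against 4.59% of all genes, and 1 member, SNORA38B, was higher, against 2.82%. The class medians were nearer to each other, at -0.48 for box H/ACA, -0.63 for box C/D and -0.46 for scaRNAs. The median SE was wider for box H/ACA (0.43) than for box C/D (0.38). Members lay close to the cutoff on both sides by limma. SNORD59A (p 0.0469) and SNORD12C (0.0489) fell just under it, SNORA24 (0.0589) and SNORA71C (0.0626) just above. Whether the classes differ was not tested. The 16 box C/D members included SNORD8 and SNORD9, guides for the U6 RNA of the spliceosome, SNORD59A and SNORD59B, and SNORD12 and SNORD12C. The TNF arrays lay below every control array for 5 members, all box C/D (SNORD58C, SNORD58A, SNORD114-27, SNORD14A and SNORD88C), against 8.72% of all genes, and above them for 0, against 4.62%. These 5 are a smaller share of the members than of all genes.

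SNORD88C, one of 3 box C/D guides of its family on chromosome 19, had 3.40, 4.76 and 3.72 on the TNF arrays, against 5.38, 6.42 and 5.21 on the control arrays. Every TNF array lay below every control array, and SNORD88C fell by 1.71 in log2 (SE 0.34; 3.27-fold lower; adjusted p 0.0317 by limma). Its family members overlapped between the groups: SNORD88A differed by -0.47 (SE 0.46, adjusted p 0.929 by limma) and SNORD88B by -0.86 (SE 0.42, adjusted p 0.698 by limma). The SNORD88C call was lost in 6 of 11 fits that left out 1 array each, with adjusted p between 0.00436 and 0.155 over the 11.

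The common shift in this comparison rested on the high control array and the low TNF array. The median over members was -0.26 without control 2, -0.11 without TNF 3, and 0.17 with both left out, an alternative chosen after seeing the data. By class it was 0.06 for box H/ACA, -0.28 for box C/D and 0.10 for scaRNAs without TNF 3, and 0.38, 0.05 and 0.35 with both left out. The 17 members lower at an unadjusted p under 0.05 became 6 without control 2, 7 without TNF 3 and 5 with both left out, when 12 were higher. With both left out SNORD88C differed by -1.21 (adjusted p 0.282 by limma).

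The combined treatment against control called 1 member lower, SNORD11, and 0 higher (all genes: 1.78% lower, 1.04% higher). SNORD11 had 4.91, 4.24 and 4.50 on the TNF plus apigenin arrays, against 5.51, 6.43 and 5.79 on the control arrays. The groups did not overlap, and SNORD11 fell by 1.36 in log2 (SE 0.34; 2.56-fold lower; adjusted p 0.0432 by limma). This call held in 3 of 11 fits that left out 1 array each, those without a TNF array; the adjusted p ranged from 0.00808 to 0.177, and without control 2 it was 0.147.

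The median difference with the combined treatment was -0.63 over members and -0.02 over all genes tested; it was -0.62 for box H/ACA, -0.81 for box C/D and -0.52 for scaRNAs, and -0.39 over members without control 2. At an unadjusted p under 0.05, 38 members were lower (12 box H/ACA, 22 box C/D, 4 scaRNAs), against 8.79% of all genes. Without control 2 that count was 9, and with TNF 3 left out as well it was 31. Another 5 were higher (SNORA57, SNORA38B, SNORD75, SNORA80A and SNORD66), against 7.15%. All 5 are among the RNAs named above that ran apart from the common array pattern. TNF plus apigenin arrays lay below every control array for 14 members (2 box H/ACA, 11 box C/D, 1 scaRNA), against 11.4% of all genes, and above them for 4 (SNORA38B, SNORD75, SNORA80A and SNORD66), against 8.69%.

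Combined treatment against TNF alone called 0 members by limma (all genes: 0.681% lower, 0.384% higher), with 2 higher (SNORD75 and SNORD58A) and 0 lower at an unadjusted p under 0.05, against 5.93% and 5.2% of all genes. The median difference was -0.14 over members and 0.02 over all genes tested, at -0.17 for box H/ACA, -0.15 for box C/D and -0.06 for scaRNAs. SNORD75, a box C/D guide from an intron of the non-coding RNA GAS5, had 7.13, 7.45 and 6.75 on the TNF plus apigenin arrays, against 6.39, 5.86 and 6.13 on the TNF arrays. SNORD75 was the one member whose groups did not overlap here with the combined treatment above (8.62% of all genes), and 0 members lay wholly below (7.05% of all genes), with a difference of 0.98 (SE 0.24, adjusted p 0.0694 by limma). SNORD78, from the same host, had 9.75, 8.78 and 9.17, against 9.09, 10.11 and 8.74 on the TNF arrays, overlapping throughout, a difference of -0.08 (SE 0.34, adjusted p 0.97 by limma), and GAS5 itself differed by 0.29 (SE 0.19, adjusted p 0.638 by limma).

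The next members by moderated t in that comparison were SNORD58A (0.75, SE 0.34) and SNORD114-27 (0.45, SE 0.23) above, and SNORD72 (-0.84, SE 0.54), SNORA79 (-1.01, SE 0.64) and SCARNA1 (-1.02, SE 0.67) below, none of them called. SNORD114-27 belongs to an imprinted snoRNA cluster on chromosome 14 with no established target. Without TNF 3 the median over members was -0.59, and 30 members were lower at an unadjusted p under 0.05. SNORD75 passed the threshold after quantile normalization (adjusted p 0.0296 by limma) and with array weights (0.00833), and with each array left out in turn its adjusted p was 0.0529 to 0.284.

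Combined treatment against apigenin alone also called 0 members by limma (all genes: 0.529% higher, 0.0441% lower). At an unadjusted p under 0.05, 6 were higher and 0 lower, against 14.1% and 1.65% of all genes; the 6 were SNORA57, SNORA38B, SNORA80A, SNORA80E, SNORD14A and SNORD66. The median difference was 0.03 over members and 0.16 over all genes tested. By moderated t the leading members above were SNORA80A (1.05, SE 0.31, adjusted p 0.139 by limma), SNORD14A (0.76, SE 0.25, adjusted p 0.185) and SNORA57 (0.72, SE 0.25, adjusted p 0.196). Those below were SNORA70G (-0.72, SE 0.41), SNORD63 (-0.90, SE 0.75) and SNORA14A (-0.83, SE 0.89). SNORA80A had 6.61, 6.69 and 6.95 with the combined treatment, against 5.27 and 6.14 with apigenin alone, without overlap. Without apigenin 2, which leaves 1 apigenin array, the differences were 1.48 for SNORA80A, 1.14 for SNORA57 and 2.06 for SNORA38B. The combined treatment lay above both apigenin arrays for 11 members, against 20.9% of all genes, and below them for SNORA70G alone, against 4.79%.

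The interaction asks whether the difference made by TNF in the presence of apigenin departs from the difference made by TNF without it. It was called for 0 members by limma (all genes: 0.0126% in each direction). At an unadjusted p under 0.05 it was positive for 10 members (9 box C/D and SCARNA23) and negative for 0, against 7.14% and 1.02% of all genes. The median was 0.58 over members and 0.23 over all genes tested, and -0.19 over members with control 2 and TNF 3 both left out. The leading members were SNORD14A (1.51, SE 0.34, adjusted p 0.297 by limma), SNORD114-27 (1.08, SE 0.35, adjusted p 0.505) and SNORD88C (1.56, SE 0.51, adjusted p 0.516), and at the other end SNORD105B (-0.29, SE 0.28), SNORA70G (-0.36, SE 0.56) and SNORA11E (-0.10, SE 0.23). Comparisons with the same control or treated arrays share those arrays, so their differences are not independent of each other.

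**Figure D4:**
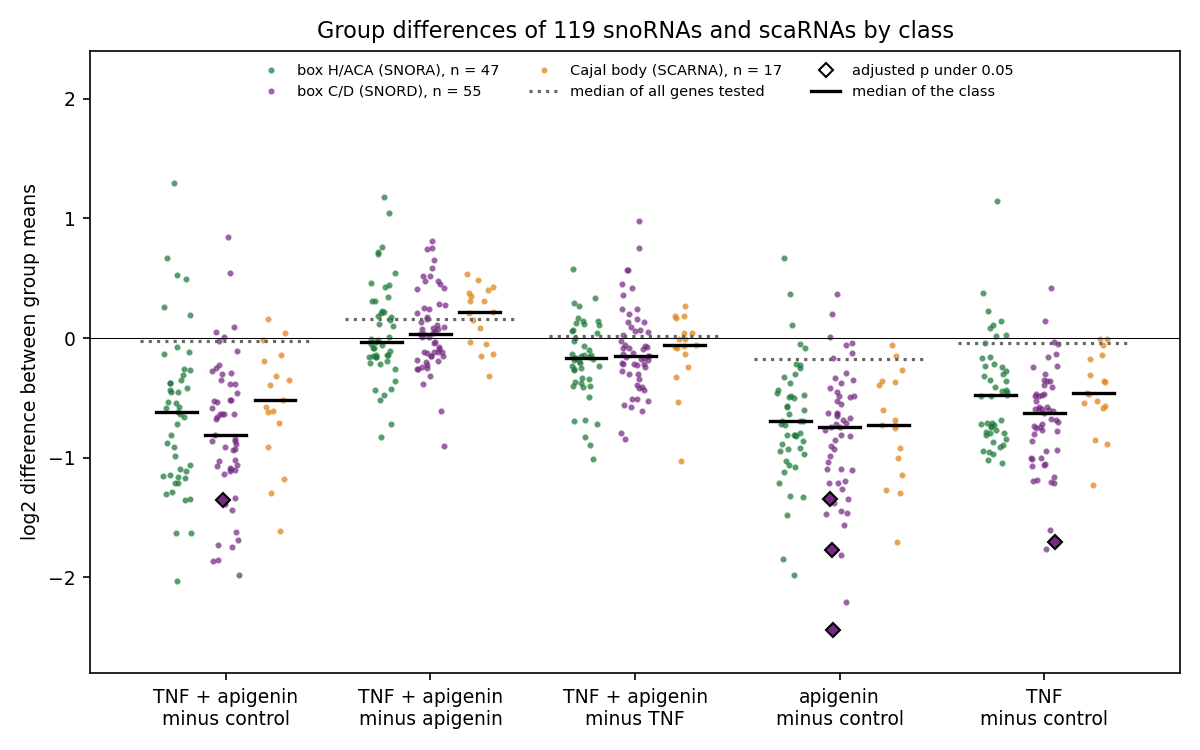
Log2 differences between group means (y axis) for each of 119 members in 5 comparisons (x axis), coloured by class; black bars are class medians, dotted lines the median of all genes tested, and diamonds the members with an adjusted p under 0.05. The class medians of the 3 comparisons with control lie below 0, and the 5 diamonds are box C/D snoRNAs.

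ScaRNAs, which guide modification of spliceosomal RNAs, had 0 calls by limma in the 6 comparisons. SCARNA2, a guide for the U2 RNA, averaged 6.09 ± 0.50 (SD, n = 3) with TNF plus apigenin, 5.74 ± 0.02 (n = 2) with apigenin, 6.05 ± 0.71 (n = 3) with TNF and 6.11 ± 0.45 (n = 3) in control. SCARNA7, a guide for the U1 RNA, averaged 7.61 ± 0.72, 7.40 ± 0.14, 7.70 ± 0.63 and 8.01 ± 0.29 in the same groups, and SCARNA10, a guide for the U5 RNA, 7.76 ± 0.87, 7.80 ± 0.38, 8.01 ± 1.18 and 8.48 ± 0.50. Treated and control arrays overlapped for all 3, except that both apigenin arrays of SCARNA7 (7.50 and 7.30) lay below its lowest control array (7.70). Against control, their differences ran from -0.71 (SCARNA10, combined treatment) to -0.02 (SCARNA2, combined treatment), each within 2 SE of 0.

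Genes that span a member in the genome, called hosts here, were set beside it. By RefSeq gene positions 94 members lay within exactly 1 other gene, 15 within several, 9 within none, and 1 could not be placed; the table of positions does not give the strand of the host relative to the snoRNA, so a spanning gene may be on either strand and need not share the transcription of the member. For 72 of these pairs, with 60 host genes, the host had a probe set of its own that passed the filter on low values. The spread between replicate arrays was wider in the small RNA than in its host in 70 of 72 pairs, with a median SD of 0.74 for the small RNAs and 0.22 for the hosts. The exceptions were SNORD41 (0.28, host TNPO2 0.32) and SNORA70B (0.17, host USP34 0.22). Of the hosts, 5% showed all 3 of the array patterns that 79% of members showed.

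**Figure D5:**
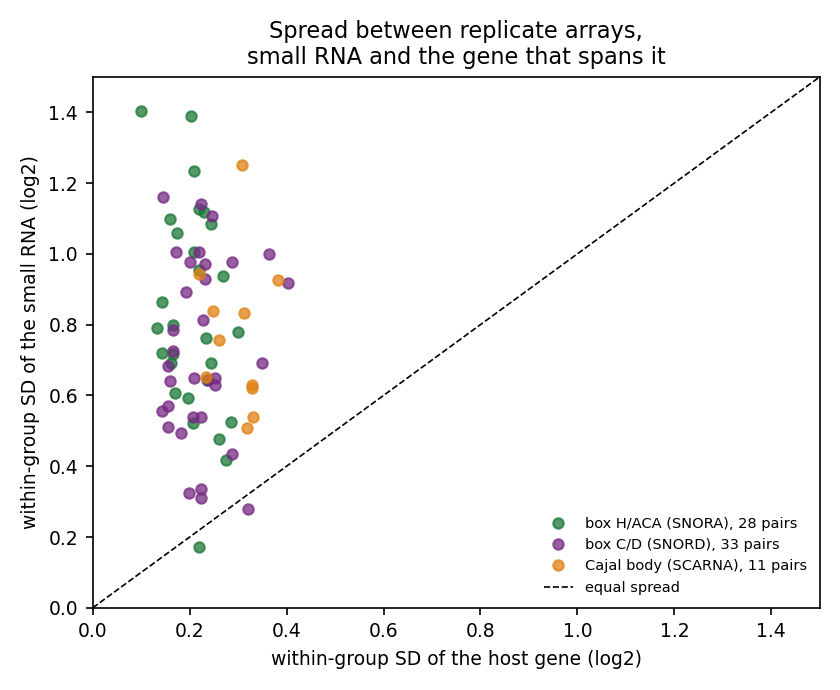
Pooled within-group SD of each small RNA (y axis) against that of the gene spanning it (x axis), both in log2, for 72 pairs on equal axes with the line of equal spread dashed. All but 2 points lie above the line; hosts reach 0.40 and small RNAs 1.41.

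In the 3 comparisons with control the hosts' median differences were nearer to 0 than the members'. With the combined treatment against control the median was -0.86 over the 72 members in pairs and 0.08 over the hosts, and the member lay below its host in 66 pairs. With apigenin against control the medians were -0.80 for members and -0.14 for hosts, with the member lower in 65 pairs. With TNF against control they were -0.65 for members and -0.06 for hosts, with the member lower in 64 pairs. The members' shift with TNF rested on the high control array and the low TNF array, as described above. That control array also enters the other comparisons with control, and few hosts shared the members' array patterns. Whether these pair medians and counts hold with those arrays left out was not tested. Between combined treatment and TNF the medians were -0.19 for members and 0.08 for hosts. Between combined treatment and apigenin the order of size turned round, with 0.01 for members and 0.25 for hosts. One host was called by limma in any of these 5 comparisons, SNHG19, a non-coding host, which was higher by 1.11 with the combined treatment than in control (SE 0.25, adjusted p 0.028) and by 1.28 than with TNF (SE 0.25, adjusted p 0.0208). SNORD60, which lies in it, had 8.11, 6.55 and 6.40 with the combined treatment, against 8.04, 9.27 and 8.07 in control, a difference of -1.44, with TNF plus apigenin 1 inside the control range. This pair, in which host and snoRNA point opposite ways, was picked out because SNHG19 was called.

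In 15 shared hosts lay 31 members, and whether members of 1 host differed from each other was not tested. SNORD12, SNORD12B and SNORD12C of the non-coding host ZFAS1 differed by -1.33, -0.86 and -0.63 between combined treatment and control (SE 0.41, 0.35 and 0.32). ZFAS1 differed by -0.17 (adjusted p 0.707 by limma). SNORD8 and SNORD9, within CHD8, differed by the like amounts of -1.62 and -1.73 (SE 0.54 and 0.57). SNORD59A and SNORD59B, within ATP5F1B, differed by -1.09 and -0.81, and SNORD75 and SNORD78, within GAS5, by 0.84 and -0.66. SNORD91B and SNORD91A, within TSR1, differed by -1.98 and -0.25.

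Many snoRNA hosts are known to begin transcription in a run of pyrimidines, the start that marks genes of the translation machinery. A run of at least 6 C or T letters, on the strand of the gene and starting within 5 bases of the annotated start, was present in 28% of 50 hosts with a promoter in RefSeq (GRCh38.p14), against 12.8% of 11717 tested genes and 13.1% of all 27305 promoters. The windows of 4 hosts of members described above, 60 bases before the start and 15 from it, are shown with such a run in capitals where there is one. RPS13 spans SNORD14A, ZFAS1 the SNORD12 family, TSR1 both SNORD91 RNAs and GAS5 SNORD75 and SNORD78. RPS13 lies at chr11:17077653-17077727 (minus strand), ZFAS1 at chr20:49278582-49278656 (plus strand), TSR1 at chr17:2336443-2336517 (minus strand) and GAS5 at chr1:173869031-173869105 (minus strand).
RPS13: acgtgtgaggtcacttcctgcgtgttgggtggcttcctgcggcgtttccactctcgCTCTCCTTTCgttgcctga
ZFAS1: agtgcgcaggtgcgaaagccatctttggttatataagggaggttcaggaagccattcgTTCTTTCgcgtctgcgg
TSR1: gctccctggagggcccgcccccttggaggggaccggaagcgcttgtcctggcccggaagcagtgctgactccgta
GAS5: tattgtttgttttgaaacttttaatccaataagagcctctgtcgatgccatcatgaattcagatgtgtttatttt
The run is 10 bases long in RPS13 and 7 in ZFAS1. Its absence from the TSR1 and GAS5 windows says nothing of how they are regulated. Each window holds 1 annotated start, so a run at another start of these genes would not be seen. RPS13 had no probe set of its own.

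Proteins that build and carry these RNAs were measured as ordinary messenger RNAs. The genes of dyskerin (DKC1), NOP56, SMN1 and SMN2 had no probe set of their own and are not among them. Of 44 proteins of H/ACA and C/D complexes, their assembly, ribosomal precursor processing, Cajal bodies and snoRNA end processing, 0 were called by limma with the combined treatment against control, and their median difference was 0.12, against -0.63 for the members. With apigenin against control 0 were called as well, but 37 of the 44 lay below 0, with a median of -0.25, against -0.72 for the members and -0.18 for all genes. Over all genes tested 72.3% lay below 0. Among the 44, 10 of 10 genes of lariat and end processing (median -0.42) and 7 of 7 assembly factors of C/D complexes (median -0.39) lay below 0. So did 6 of 8 Cajal body and scaRNA proteins (median -0.26) and 3 of 3 C/D proteins (-0.13). The counts were 8 of 10 for U3 and U8 processing proteins (median -0.07) and 3 of 6 for H/ACA proteins (-0.04). With TNF against control 0 were called and the median was -0.01. Fibrillarin (FBL) differed by 0.00 with the combined treatment against control (SE 0.17, adjusted p 0.995 by limma). The median SD of the 44 genes was 0.23 and 2.27% of them showed all 3 array patterns.

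Other small structural RNAs showed the array pattern in part. Of 22 such RNAs with a mean of at least 4, 13 showed all 3 array patterns (59.1%), and their median SD was 0.58. RNU11, of the minor spliceosome, had 8.22, 7.17 and 7.15 with the combined treatment, 7.64 and 7.24 with apigenin, 8.45, 8.53 and 6.43 with TNF and 8.18, 9.33 and 8.17 in control, lowest on TNF 3 and highest on control 2 as in most snoRNAs. RN7SK, an RNA that holds back transcription elongation, had an SD of 0.19. Among 103 microRNA hairpins with a mean of at least 4, 15.5% showed all 3 patterns and the median SD was 0.40. Length alone did not order the members: the median SD was 0.61 for 43 members under 100 bases, 0.74 for 62 from 100 to 149, and 0.63 for 13 of 150 or more.

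Among genes known to respond to the treatments, the TNF-responsive genes TNFAIP3, CCL2 and CXCL8 were called higher by limma in TNF than in control, and CYP1A1 and CYP1B1, targets of the aryl hydrocarbon receptor, in apigenin than in control. With TNF plus apigenin, which holds the same apigenin dose, neither CYP gene was called against control: CYP1A1 differed by 0.27 (adjusted p 0.63 by limma) and CYP1B1 by 0.08 (adjusted p 0.869 by limma). Both were called lower than with apigenin alone, with differences of -1.46 for CYP1A1 (adjusted p 0.0146 by limma) and -0.89 for CYP1B1 (adjusted p 0.0419 by limma). All 6 epithelial markers listed for the line were present, at means of 4.18 to 10.8. Of the markers of other cell types, 3 of 3 for T and B cells, 3 of 4 for fibroblasts, 2 of 4 for macrophages and 1 of 2 for endothelium lay below the median level of all genes with a probe set. Array medians over tested genes ran from 3.89 (apigenin 1) to 4.32 (TNF plus apigenin 1).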

How the data were processed

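The deposited values are log2 probe set levels of 11 arrays. Per the submitters' processing notes, the authors used Affymetrix Expression Console to make them; no version, summarisation or background setting is stated for it in the sources. Per the labels' protocols, total RNA was extracted with TRIzol and chloroform. A gene took its probe set with 1 annotated symbol and the highest mean; symbols were updated through RefSeq. Genes with at least 2 arrays at or above the median probe set mean (2.53) were tested, 15865 of 22395. limma 3.58.1 (R 4.3.3; lmFit, eBayes) fitted 1 mean per group to all 11 arrays, and p-values were two-sided and Benjamini-Hochberg adjusted over all tested genes; the fit was tested on simulated data. Intervals and SE come from this fit. Members and lists were chosen with earlier results of these data known. Named members are those called, the 3 highest and 3 lowest by moderated t where 0 were called, the 10 highest means, those next to the level of 4, and a list of known RNAs; others named in the text were chosen after their values were seen. Hosts were meant to be matched by strand, but the position table lacks it for this use, so either strand was taken. Alternatives were another scaling, no filter, array weights, an intensity trend, a replicate block, all probe sets as rows, and each array left out. Whether equal replicate numbers pair the samples is not known. Deviations of the 15 same-numbered pairs correlated between -0.24 and 0.28, above 0.1 in 4. Pairs of different number correlated between -0.39 and 0.19. With 2 to 3 arrays a group, deviations from the group mean cannot settle the question.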

Additional observations from a re-analysis of the deposited data

How the results depend on the processing

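The medians over members kept their sign under quantile normalization and a median shift except for combined treatment against apigenin, where quantile normalization gave -0.16 and a median shift -0.17 instead of 0.03. The median of all genes for apigenin against control depended on scaling: it was -0.18 as deposited and -0.03 after quantile normalization. With control 2 and TNF 3 both left out, chosen after seeing the data, the median for TNF against control was 0.17 (also with apigenin 1 left out) and the interaction -0.19; by class they were 0.05 and -0.05 for box C/D and 0.35 and -0.22 for scaRNAs.

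Counts of called members were small and changed by setting. TNF against control (1 as reported) gave 0 after quantile normalization, after a median shift, without the filter, with all probe sets as rows, and with control 2 and TNF 3 left out, with or without apigenin 1. Apigenin against control (3) gave 1 after quantile normalization or a median shift, 0 with array weights and 0 with all probe sets as rows. The replicate block gave 10 there, and whether its numbers pair the samples is not known. Combined treatment against TNF (0) gave 1 after quantile normalization and with array weights (SNORD75, higher), and 4 (all lower) without control 2 and TNF 3. Combined treatment against control (1, lower) gave 2 after quantile normalization (SNORD11 lower, SNORD75 higher) and 0 without the filter. It gave 5 with array weights (SNORA38B and SNORD75 higher, the others lower) and 3 with the replicate block (all lower). With all probe sets as rows, and without control 2 and TNF 3, it gave 0. The replicate block changed no other count. Leaving out 1 array at a time gave 0 to 3 calls for TNF against control, 0 to 5 for apigenin against control, 0 to 6 for combined treatment against control and 0 to 3 for combined treatment against apigenin; 0 were called in the other comparisons. The median turned positive in some of these fits for combined treatment against TNF (-0.59 to 0.16) and negative in some for combined treatment against apigenin (-0.25 to 0.25). Other medians ran from -0.87 to -0.11 for TNF, -0.90 to -0.40 for apigenin and -0.95 to -0.39 for the combined treatment, each against control. The cause of these changes was not tested beyond the fewer arrays or more rows each setting holds. The 2 to 3 arrays a group limit what can be called. A fit without apigenin 1 or apigenin 2 keeps 1 apigenin array, so its calls against apigenin rest on that array.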
